A study of Mus musculus with 6 samples.

Results

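Axon guidance genes encode the secreted and membrane-bound cues that attract or repel a growing axon, and the receptors that read them. Semaphorins bind plexins, with neuropilins as co-receptors for the secreted class 3 semaphorins. Slits bind Robo receptors, netrins bind Unc5 receptors among others, and membrane-anchored ephrins bind Eph receptor tyrosine kinases on the neighbouring cell. Outside the nervous system the same families steer cell migration, contact repulsion and the patterning of vessels and nerves, and skin fibroblasts express many of them. Dscam, the Down syndrome cell adhesion molecule, is an immunoglobulin-family adhesion protein of neurons that mediates self-avoidance and can act as a netrin receptor.

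The genes were chosen by name from 22162 genes in a table of cultured mouse skin fibroblasts (MSFs), and 70 were found: 20 semaphorins, 11 neuropilins and plexins, 3 Slits, 4 Robo receptors, 4 netrins, 4 Unc5 receptors, 8 ephrins, 14 Eph receptors, Dscam and its paralogue Dscaml1. Dscam was included because its fall in these 6 libraries was the largest of the table, so its values are given as a description, with no test. The other members entered through their names.

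The MSFs came from the dorsal skin of a female FASST mouse on the FVB/N background. This strain carries a tamoxifen-inducible Cre (CreERT2) under the pro-alpha 2(I) collagen promoter, which is active in mesenchymal cells, and a ROSA26 lox-stop-lox p27Kip1-IRES-GFP allele. Both groups therefore shared both alleles and the 3% oxygen and 5% CO2 of the culture. The 3 TAM libraries, labelled senescent, came from cells given 10 µM tamoxifen for 48 h to recombine the p27Kip1 allele. The 3 EtOH libraries, labelled non-senescent, came from cells given the ethanol vehicle. Tamoxifen itself and p27Kip1 cannot be told apart in this design, and the cells trace to a single mouse. The labels do not say that replicates were separate cultures, so p-values measure the spread between these libraries only.

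The values are normalized counts, which summed to between 14952367 and 17314953 per library, and the members took 0.287% to 0.453% of that sum. Cdkn1b, the endogenous p27Kip1 gene, stood at 1427, 3074 and 1853 normalized counts in the EtOH libraries and 1699, 1520 and 1630 in the TAM libraries, and the groups overlapped (log2 fold change -0.32, limma adjusted p = 0.677). Whether reads from the p27Kip1 allele were counted there is not given in the sources used here. All 10 fibroblast markers were above the filter, with a sum of 1962055 to 2082633 in EtOH libraries and 1278753 to 1594317 in TAM libraries. Markers of neurons, the cells in which most of these genes are best known, summed to only 28 to 142 in EtOH and 67.3 to 295 in TAM libraries, and 2 of 9 passed the filter, with Rbfox3 at 0.82 or less in every library. The 8 Schwann cell markers summed to 178 to 301 in EtOH and 66.9 to 169 in TAM libraries, with Sox10 at 0.82 or less. The 2 that passed the filter, 1 of them through the EtOH group only, lay below all EtOH values in every TAM library. Over all genes tested 11.4% did so, and 0 of the 2 were called in either fit. Melanocyte markers summed to 405 to 1010 in EtOH and 295 to 761 in TAM libraries, and 4 of 7 passed the filter. Macrophage markers summed to 203 to 527 in EtOH and 366 to 548 in TAM libraries, also with 4 of 7 passing. Keratinocyte markers summed to 80.15 to 88.6 in EtOH and 64.2 to 125.6 in TAM libraries. The part of any of these cell types in the results below was not tested. In bulk libraries fewer cells of a type and less RNA per cell cannot be told apart.

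Of the 70 members, 49 reached 1 c.p.m. (16.2 normalized counts) in at least 3 of the 6 libraries and were tested, and Dscam alone among them passed through the EtOH group only. Epha10 and Ephb1 were listed at 0 in all libraries. The log2 fold change was TAM minus EtOH on log2(value + 1). It was positive for 28 tested members (57.1%, against 46.2% of all genes tested) and negative for 21. Its median was 0.05, or 0.20 without Dscam, against -0.03 over the 11877 genes tested. The counts that follow are over the 48 tested members other than Dscam. With limma and no replicate block, 0 were called higher, where 0.168% of all genes were, and 0 lower, where 0.0758% were (0.244% in either direction). Same-numbered samples were paired from correlations in these data, not from the labels. With the number as a block 3 members rose (Sema6a, Nrp2 and Plxna4), where 1.00% of all genes were called higher. Another 1 fell (Plxna3), where 0.615% were called lower (1.62% in either direction). At an unadjusted p under 0.05 without the block, 11 members were higher and 6 lower, against 6.67% and 6.70% of all genes. The TAM values lay above all EtOH values for 11 members (22.9%, against 9.19% of all genes tested) and below them for 4 (8.33%, against 11.4%).

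**Figure D1:**
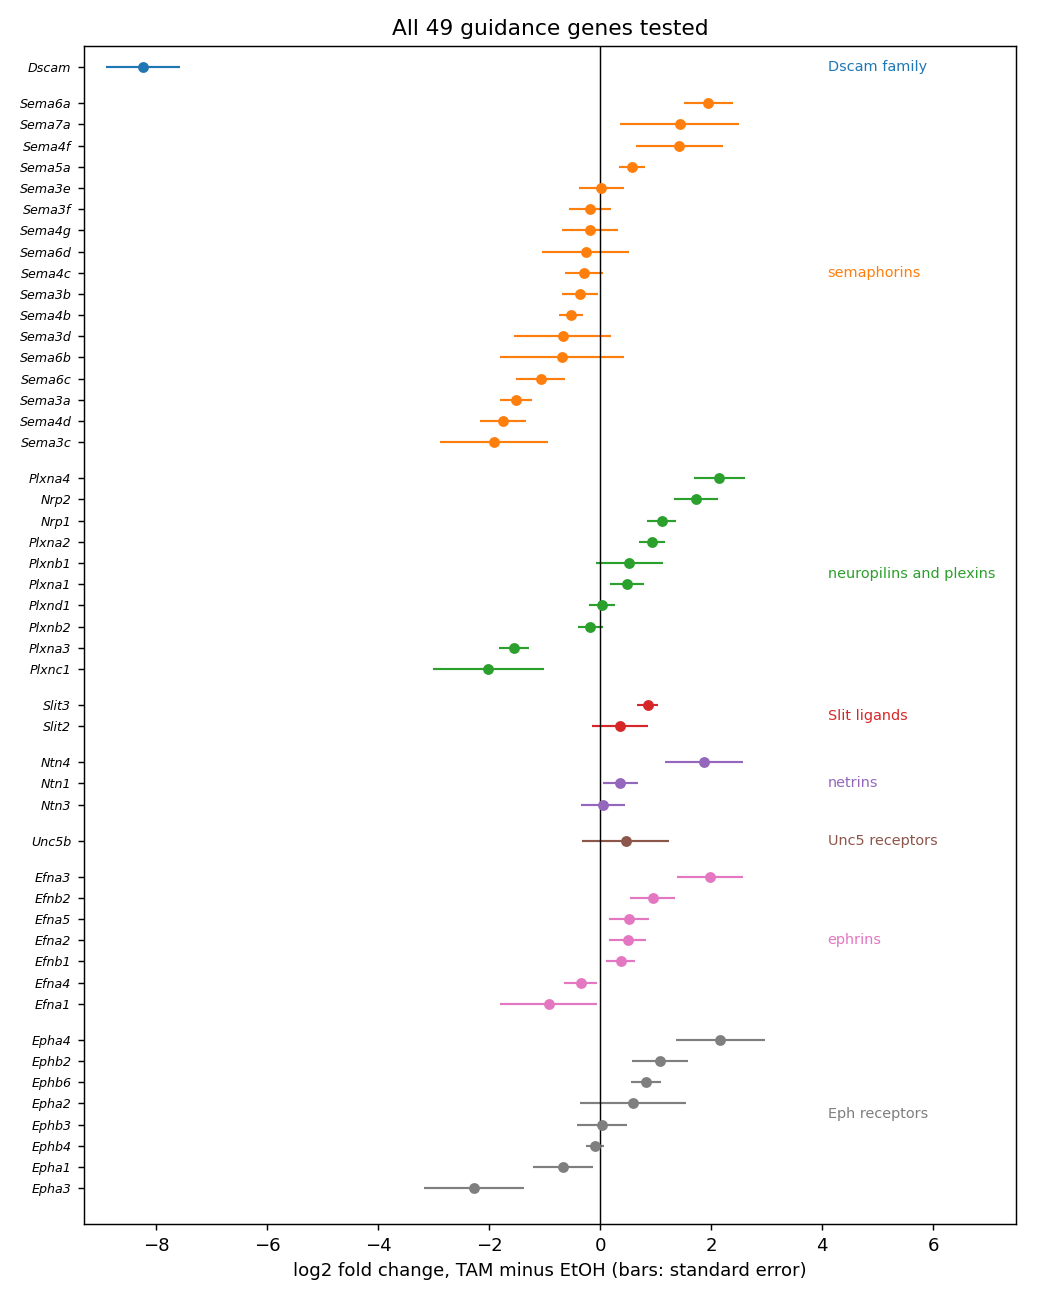
Log2 fold change (TAM minus EtOH, x axis) of each of the 49 tested guidance genes, listed by role on the y axis. Points are limma estimates on log2(value + 1) and bars are standard errors. Dscam, the gene chosen for its fall, lies at -8.23, while every other member lies between -2.27 (Epha3) and 2.17 (Epha4).

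Dscam (ENSMUSG00000050272) was well expressed in the EtOH libraries and close to absent in the TAM libraries. Its EtOH values were 844.5, 455 and 1668 (989 ± 619, SD, n = 3), and its TAM values were 1.90, 5.01 and 0.36 (2.42 ± 2.37, SD, n = 3). The groups were far apart, although the EtOH values themselves spread widely. The log2 fold change was -8.23 with a standard error of 0.67, and the same-numbered pairs gave -8.19, -6.25 and -10.26. Its size depends on how values near 0 are treated: it was -6.15 with a pseudocount of 10 and -5.94 as a ratio of group means with a floor of 1 c.p.m. In TAM replicate 2 low values came in steps of 0.838 normalized counts, and the Dscam value there was 6 such steps, so the TAM level rests on very few reads.

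Levels were divided by kilobases of annotated exon to set genes side by side. Dscam averaged 132 normalized counts per kb in EtOH libraries, 17th of the 49 tested members, and 0.323 in TAM libraries, where it was last. That last place describes a gene chosen for its fall, which passed the filter through the EtOH group only. For some members, though not Dscam, the listed span differs from the annotation that gave the exon lengths. Sema6c, for example, was listed with 4.086 kb against 5.935 kb of exon. Levels per kb and their order are therefore approximate. In the EtOH libraries Dscam, a gene best known from neurons, was thus at the level of many other members. Which cells it came from was not tested. Dscaml1, the paralogue, was listed at 0.82 in TAM replicate 2 and at 0 in the other libraries.

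Dscam lies on the minus strand of mm9 chromosome 16, from 96813686 to 97392359. Its span of 578.7 kb holds 33 separate exon blocks totalling 7.498 kb, and no annotated exon of another gene overlaps them. The 21 other genes within 1 Mb were examined for the same change. Of these, 12 were tested, and their log2 fold changes ran from -0.75 (Ets2, a transcription factor) to 0.52 (BC056174). None was called (lowest limma adjusted p = 0.247 for Hmgn1, a nucleosome-binding protein, and 0.228 with the block). At an unadjusted p under 0.05 there was 1 neighbour, against 13.4% of all genes in either direction. Ets2 and Hmgn1 (2 of 12) were lower in every TAM library than in any EtOH library, against 11.4% of all genes tested. The other 10 tested neighbours overlapped. Bace2, the nearest tested gene beyond the Dscam start, stood at 143, 56.2 and 149 in EtOH libraries and 343, 37.7 and 29.8 in TAM libraries, which overlap. A further 4 of the 21 genes were listed at 0 in every library.

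**Figure D2:**
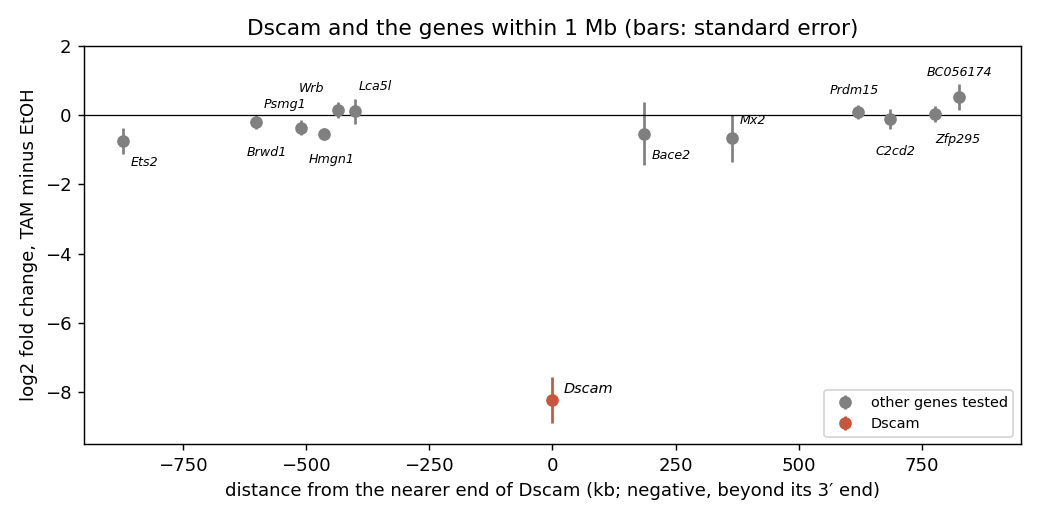
Log2 fold change (TAM minus EtOH, y axis) of Dscam and of the 12 tested genes within 1 Mb, by distance from the nearer end of Dscam in kb (x axis, negative beyond its 3′ end). Bars are limma standard errors. Dscam lies at -8.23 and its neighbours between -0.75 and 0.52.

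The sequence just upstream of the Dscam start is shown because Dscam is the member chosen for its fall. It covers the 200 bases from 250 to 51 before the RefSeq start (GRCm38.p6), an exact match to the minus strand at chr16:97392393-97392592 in mm9, and any motif found would be in capitals.
Dscam: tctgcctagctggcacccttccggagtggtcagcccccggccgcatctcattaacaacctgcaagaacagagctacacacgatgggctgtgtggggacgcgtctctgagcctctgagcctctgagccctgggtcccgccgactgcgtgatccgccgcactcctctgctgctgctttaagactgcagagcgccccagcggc
This window held 13 CG dinucleotides. On both strands it held no GC box (GGGCGG), AP-1 site (TGANTCA), E-box (CACGTG) or estrogen response element, the last being the sequence bound by the receptor whose ligand-binding domain makes CreERT2 responsive to tamoxifen.

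Among the semaphorins, the ligands of plexins, 17 of 20 members were tested, 1 (Sema6a) rose with the replicate block and 0 were called without it. The secreted class 3 members lay mostly below 0, with 5 of 6 tested negative and a median log2 fold change of -0.52. Class 4, membrane-bound, had 4 of 5 negative and a median of -0.29. Class 6, transmembrane, had 3 of 4 negative and a median of -0.47, with Sema6a the exception. Over all genes tested 6390 of 11877 were negative, and no semaphorin was called lower in either fit.

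Sema6a, a transmembrane semaphorin that binds A-type plexins, had 37.4, 16.2 and 21.1 normalized counts in EtOH libraries and 147, 68.7 and 81.0 in TAM libraries. Every TAM value was above every EtOH value, although all were low. The log2 fold change was 1.95 (SE 0.44, limma adjusted p = 0.152), whereas the block gave an SE of 0.27 and an adjusted p = 0.0459. Sema5a, a transmembrane semaphorin with thrombospondin repeats, also showed no overlap, with 814, 656 and 663 in EtOH and 1409, 819 and 1029 in TAM libraries (log2 fold change 0.58, limma adjusted p = 0.350, 0.202 with the block).

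Sema3a, the collapsin that repels axons through neuropilin-1 and A-type plexins, showed the clearest separation among the class 3 members. It had 5906, 4403 and 6771 normalized counts in EtOH libraries and 1359, 2543 and 2166 in TAM libraries, and the highest TAM value was below the lowest EtOH value. The log2 fold change of -1.52 (SE 0.29) did not pass the threshold in limma, with an adjusted p = 0.103, or 0.0860 with the block. Sema3c, another secreted cue, had 13226, 3520 and 13573 in EtOH libraries and 4538, 484 and 5382 in TAM libraries. Here the groups overlapped, since both libraries numbered 2 were the lowest of their group, but TAM was lower within each pair (log2 fold change -1.91, limma adjusted p = 0.456, 0.0757 with the block).

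Sema4d, which signals through Plxnb1, had 53.2, 111 and 77.2 in EtOH libraries and 19.0, 17.6 and 32.9 in TAM libraries, with no overlap (log2 fold change -1.74, limma adjusted p = 0.164, 0.123 with the block). Sema4b was also lower in every TAM library, at 217, 303 and 284 against 166, 178 and 212 (log2 fold change -0.52, limma adjusted p = 0.362, 0.273 with the block). Sema7a, anchored by a lipid and able to bind integrins and Plxnc1, ran with the replicate number more than with treatment, with 28.6, 240 and 42.4 in EtOH and 79.4, 793 and 95.5 in TAM libraries. Within pairs it was higher in TAM each time (log2 fold change 1.44, limma adjusted p = 0.614, 0.0641 with the block). The other tested semaphorins ran from -1.07 (Sema6c) to 1.43 (Sema4f) and overlapped between groups, and Sema3g, Sema4a and Sema5b were below the filter, with Sema4a at 0.78 to 10.5 in EtOH and 4.30 to 24.3 in TAM libraries.

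Among the receptors of the semaphorins, 10 of 11 were tested, and Nrp2 and Plxna4 rose while Plxna3 fell with the replicate block, none of them passing without it. Nrp2, the co-receptor favoured by several class 3 semaphorins and also bound by vascular growth factors, had 1082, 1181 and 729 normalized counts in EtOH libraries and 5587, 3268 and 1880 in TAM libraries. The means differed by 3.59-fold with no overlap, and TAM replicate 1 stood highest. On the log2 scale the difference was 1.73 (SE 0.40, limma adjusted p = 0.157), whereas the block gave an adjusted p = 0.0481 (SE 0.25). Nrp1, the co-receptor of Sema3a, had 1212, 868 and 1647 in EtOH and 2121, 2784 and 2942 in TAM libraries, so all TAM values were higher too (log2 fold change 1.11, limma adjusted p = 0.176, 0.110 with the block). Its libraries numbered 3 were the highest of each group.

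Plxna4, an A-type plexin that pairs with neuropilins and binds Sema6a directly, had 149, 171 and 92.8 in EtOH libraries and 1163, 495 and 366 in TAM libraries. All TAM values were at least 366, against at most 171 in EtOH, and TAM replicate 1 stood highest, as it did for Nrp2 and Sema6a. Its log2 fold change was 2.15 (SE 0.45, limma adjusted p = 0.135), and 0.0494 was the adjusted p with the block (SE 0.31). Plxna3, the closely related A-type plexin, went the other way, with 576, 842 and 1075 in EtOH libraries and 261, 235 and 332 in TAM libraries. Its groups did not overlap, and its log2 fold change was -1.56 (SE 0.27, limma adjusted p = 0.0915, 0.0438 with the block).

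**Figure D3:**
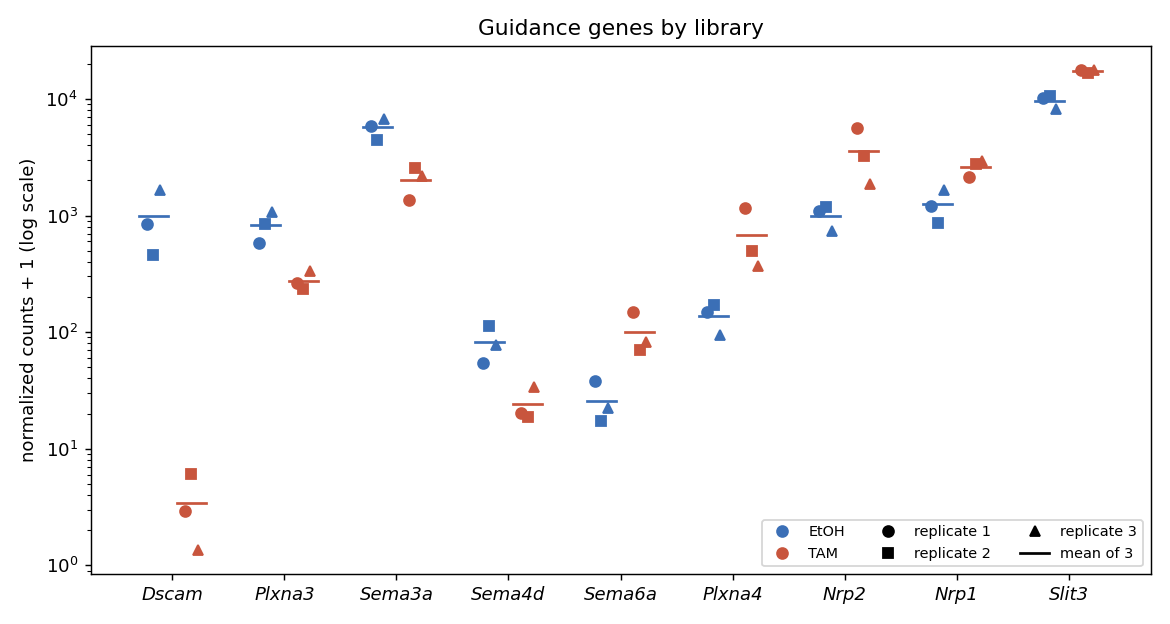
Normalized counts + 1 (y axis, log scale) of 9 guidance genes in each library. Blue points are the 3 EtOH and red points the 3 TAM libraries, the shape gives the replicate number and the line is the mean. In each of these genes the groups do not overlap, with Dscam at 455 to 1668 against 0.36 to 5.01 normalized counts.

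The A-type plexins were set side by side as shares of their summed level per kb of exon. The listed span of Plxna3 differs from the annotation that gave the exon lengths, so the shares are approximate. Plxna1 made up most of it in every library, with 73.1% to 87.7% in EtOH and 82.9% to 88.9% in TAM libraries. Plxna3 contributed 8.57%, 21.3% and 20.3% in EtOH libraries and 3.37%, 3.16% and 6.38% in TAM libraries. Plxna4 contributed 1.39%, 2.70% and 1.10% in EtOH libraries and 9.42%, 4.16% and 4.42% in TAM libraries. The order of these minor members was thus reversed in TAM replicates 1 and 2 but not in replicate 3, where Plxna3 stayed above Plxna4. Plxna2 had 302, 220 and 340 normalized counts in EtOH and 646, 544 and 455 in TAM libraries, with no overlap (log2 fold change 0.94, limma adjusted p = 0.183, 0.149 with the block).

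**Figure D4:**
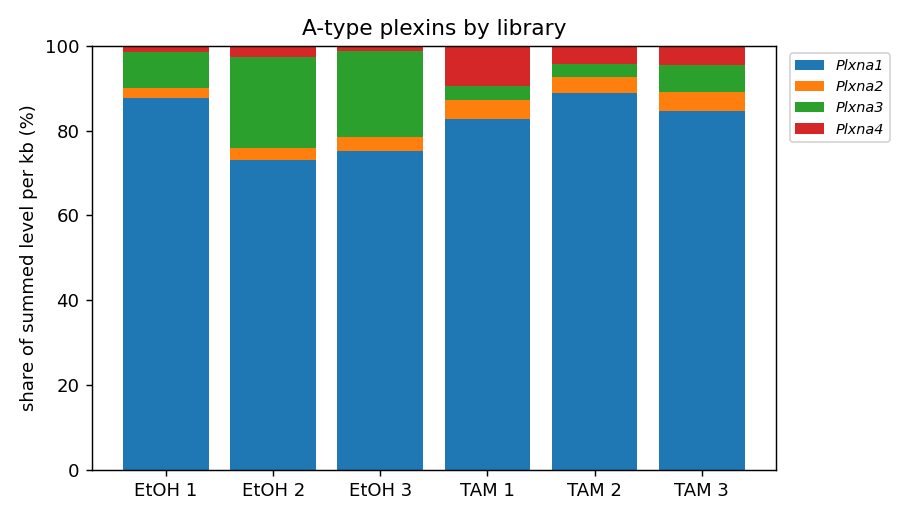
Share (%, y axis) of each A-type plexin in their summed normalized counts per kb of exon, one bar for each library (x axis). Plxna1 takes 73.1% to 88.9% throughout, Plxna3 takes 8.57% to 21.3% in EtOH and 3.16% to 6.38% in TAM libraries, and Plxna4 takes 1.10% to 2.70% and 4.16% to 9.42%.

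Plxnb2, a B-type plexin for class 4 semaphorins, was the most abundant plexin per kb (1170 normalized counts per kb in EtOH and 1053 in TAM libraries), with a log2 fold change of -0.18. Plxnc1, the Sema7a receptor, had 762, 153 and 3257 in EtOH libraries and 131, 294 and 146.5 in TAM libraries. The log2 fold change of -2.02 had a standard error of 1.00, and without EtOH replicate 3 it was -0.93. Plxnb1 (0.53) and Plxnd1 (0.03) overlapped between groups, and Plxnb3 was at most 1.58.

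Upstream windows of a receptor that rose and one that fell with the block, Nrp2 and Plxna3, are shown for comparison with that of Dscam, with GC boxes in capitals on whichever strand they lie. They are from RefSeq (GRCm38.p6), cover the same distance from the start, and match mm9 exactly at chr1:62749641-62749840 and chrX:71574155-71574354, both on the plus strand.
Nrp2: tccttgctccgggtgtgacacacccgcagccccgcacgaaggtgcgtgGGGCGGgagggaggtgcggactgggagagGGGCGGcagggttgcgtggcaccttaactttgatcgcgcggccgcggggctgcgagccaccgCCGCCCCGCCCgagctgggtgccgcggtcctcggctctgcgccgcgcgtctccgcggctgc
Plxna3: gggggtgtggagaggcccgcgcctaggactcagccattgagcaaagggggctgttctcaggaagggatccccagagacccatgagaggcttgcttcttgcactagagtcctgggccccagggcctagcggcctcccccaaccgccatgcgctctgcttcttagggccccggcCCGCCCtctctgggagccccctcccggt
Nrp2 had 4 GC boxes and 28 CG dinucleotides in this window, and Plxna3 had 1 GC box and 8 CG dinucleotides. RefSeq promoters were matched for 60 of the 70 members (76 promoters), among which 56.6% held a GC box, 1.32% an AP-1 site, 2.63% an E-box and 0% an estrogen response element. Over all 32851 promoters of the same length the shares were 24.6%, 5.57%, 4.34% and 0.0517%. The median number of CG dinucleotides was 12 in the members and 4 in all, so the members' windows were CG-rich, the Dscam window included. These matches describe letters and not binding. Plxna4 was among the members not matched, and no window is shown for Sema6a.

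Of the Slit ligands 2 of 3 were tested, and Slit3, a secreted Robo ligand, had the highest mean level per kb of all members in both groups, although Sema3c was above it in EtOH replicates 1 and 3. It averaged 1587 ± 200 normalized counts per kb (SD, n = 3) in EtOH and 2857 ± 104 in TAM libraries. Its normalized counts were 10127, 10515 and 8248 in EtOH libraries and 17649, 16606 and 17742 in TAM libraries, and the groups did not overlap. The means differed by 1.80-fold and the replicates were tight, but with a log2 fold change of 0.86 (SE 0.20) the adjusted p in limma was 0.157, or 0.142 with the block. Slit2 had 2554, 822 and 3075 in EtOH and 3101, 1687 and 2579 in TAM libraries, where the groups overlapped. Slit1, under the filter, had 101 in EtOH replicate 2 and at most 18.5 elsewhere.

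The receptors that bind Slits were listed near 0. Robo1, Robo2, Robo3 and Robo4 were between 0 and 5.01 normalized counts in every library, and 0 of 4 could be tested. The spans listed for Robo1, Robo2 and Robo3 differ from the annotation used here. Robo3 was listed with a span of 3.196 kb against 6.777 kb of exon. Reads elsewhere in these genes may not have been counted. Slit3, for which these are the receptors, was thus measured beside Robo genes listed at a few normalized counts.

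Netrin genes were measured at moderate levels, with 3 of 4 tested and 0 called in either fit. Ntn4, a netrin that binds laminins, had 1470, 168 and 363 in EtOH libraries and 1406, 1720 and 1832 in TAM libraries. The TAM values were close together and above EtOH replicates 2 and 3, but EtOH replicate 1 was at the TAM level (log2 fold change 1.87, SE 0.70, limma adjusted p = 0.318, 0.247 with the block). Ntn1, the founding netrin, had 415, 355 and 587 in EtOH and 857, 458 and 474 in TAM libraries, with a log2 fold change of 0.37, and Ntn3 had 0.05. Ntn5 was listed at 1.60 or less. Of the Unc5 receptors, which mediate repulsion from netrins, only Unc5b was tested. It had 719, 2813 and 470 in EtOH libraries and 1024, 3368 and 724 in TAM libraries, high in both libraries numbered 2 (log2 fold change 0.46, limma adjusted p = 0.841, 0.259 with the block). Unc5a, Unc5c and Unc5d were at 10.0 or less.

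Of the ephrins, 7 of 8 were tested and 0 were called in either fit. Efnb2, a transmembrane ephrin known from arterial vessels, had 1062, 345 and 901 in EtOH libraries and 1404, 1314 and 1290 in TAM libraries. No values overlapped, and the TAM values were within a narrow range (log2 fold change 0.95, SE 0.40, limma adjusted p = 0.376, 0.259 with the block). Efna3, lipid-anchored, had 9.13, 18.1 and 5.16 in EtOH and 47.4, 62.0 and 23.0 in TAM libraries, also without overlap (log2 fold change 1.98, limma adjusted p = 0.240, 0.0827 with the block). A lincRNA on the opposite strand shares 14.1% of the Efna3 exon bases, and the strand setting of the counting is not given in the sources used here. Efna1 had 190 in EtOH replicate 2 and 12.6 to 34.0 in the other libraries, and its log2 fold change of -0.93 became 0.07 without that library. The log2 fold changes of Efnb1, Efna2, Efna4 and Efna5 lay between -0.35 and 0.52, and Efnb3, under the filter, had 4.73 to 8.50 in EtOH and 6.69 to 18.3 in TAM libraries. Most of the Efna5 exon bases (59.9%) also belong to a second annotated gene of that name, so its count is uncertain.

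Of the Eph receptors 8 of 14 were tested and 0 were called in either fit. Epha4, a receptor that binds ephrins of both types, had 200, 210 and 50.3 in EtOH libraries and 1793, 327 and 333 in TAM libraries. No values overlapped, but a single TAM library was far above the others (log2 fold change 2.17, SE 0.80, limma adjusted p = 0.311, 0.137 with the block). Epha3, a receptor of ephrin-A ligands found in mesenchyme, had 515, 80.1 and 693 in EtOH libraries and 48, 32.7 and 156 in TAM libraries. It overlapped because EtOH replicate 2 was low, and was lower in TAM within each pair (log2 fold change -2.27, SE 0.90, limma adjusted p = 0.342, 0.0864 with the block). Ephb6, a receptor without kinase activity, had 220, 163 and 300.3 in EtOH and 334, 397 and 457 in TAM libraries, with no overlap (log2 fold change 0.83, limma adjusted p = 0.261, 0.164 with the block).

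Ephb4, the partner of Efnb2, had the highest Eph level per kb, with 464 normalized counts per kb in EtOH and 435 in TAM libraries, and its log2 fold change was -0.09. That sign turned to 0.02 when values were scaled to library size only. Ephb3, Ephb2 and Epha1 had log2 fold changes of 0.04, 1.08 and -0.67, with lowest adjusted p = 0.115 in limma (Ephb2, with the block). Epha2 had 0.59, with 468 in TAM replicate 2 and 39.9 and 63.1 in the other TAM libraries. Epha5, Epha6, Epha7 and Epha8 were at 4.42 or less.

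**Figure D5:**
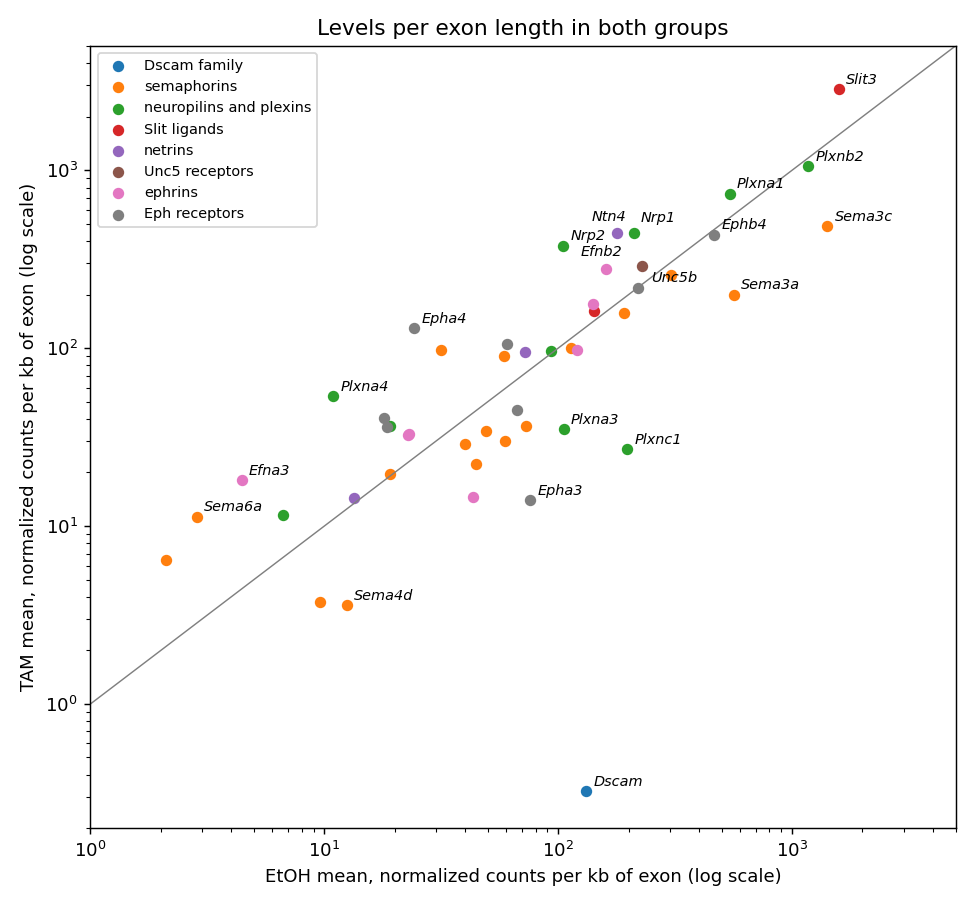
Mean normalized counts per kb of exon in TAM (y axis) against EtOH libraries (x axis), both on log scales, for the 49 tested members coloured by role. The diagonal marks equal levels. Slit3 (1587 and 2857) is highest on both axes. Dscam (132 and 0.323), the gene chosen for its fall, lies below the rest.

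In order of level per kb, Slit3, Sema3c, Plxnb2, Sema3a and Plxna1 led the EtOH libraries, at 1587, 1415, 1170, 564 and 541 normalized counts per kb. In TAM libraries the order was Slit3 (2857), Plxnb2 (1053), Plxna1 (737), Sema3c (486) and Nrp1 (443), and Sema3a came 13th at 200.2. In the EtOH libraries Sema3c had an SD of 799 per kb, so its place between Slit3 and Plxnb2 was within its spread.

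A wider list of guidance genes, such as other receptors, netrin-G ligands and the signalling proteins downstream, was fixed by name for comparison. Of 95 names 94 were found, 73 of which passed the filter. Calls without the block came to 1 higher and 0 lower, against 2 higher and 0 lower with it, where 0.168% and 1.00% of all genes were called higher. The median log2 fold change was 0.09, and 10 genes (13.7%, against 9.19% of all genes) lay above and 3 (4.11%, against 11.4%) below all EtOH values. Ntng2, a lipid-anchored netrin relative that acts at synapses, rose from 51.4, 24.7 and 42.4 in EtOH libraries to 256, 235 and 195 in TAM libraries (log2 fold change 2.56, limma adjusted p = 0.0427, 0.0345 with the block). Tiam1, an exchange factor that activates Rac, rose with the block only, from 151, 142 and 91.1 to 384, 765 and 337 (log2 fold change 1.88, limma adjusted p = 0.113, 0.0461 with the block).

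Among the endothelial markers only Kdr, the vascular receptor that partners neuropilins, passed the filter, through the EtOH group. Its values were 205, 68.7 and 116 in EtOH libraries and 4.84, 7.53 and 14.0 in TAM libraries (log2 fold change -3.71). No p-value is given, because the filter kept Kdr only through the group where it was high. The sum of 8 endothelial markers was 92.5 to 241 in EtOH and 24.6 to 45.2 in TAM libraries. Kdr made up most of that sum in each EtOH library, so the sum largely repeats Kdr. Vwf was low but higher in every TAM library, at 0.55, 6.65 and 4.34 against 8.90, 8.36 and 10.1, Pecam1 was at most 11.3, and Cldn5 was at 0 in all libraries. Of the 10 fibroblast markers 5 lay below all EtOH values in every TAM library (against 11.4% of all genes) and 1 lay above them, 7 having negative and 3 positive log2 fold changes and none being called in either fit, with Dcn at 75763 to 106514 in EtOH and 6712 to 27277 in TAM libraries. The part of either in the members' values was not tested.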

How the data were processed

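Poly(A) RNA of the 6 libraries was sequenced and mapped by the authors to mm9 with TopHat, counted per gene with htseq-count and normalized with edgeR's trimmed mean. The deposited table holds this signal as normalized counts per gene, which are not whole numbers, so the planned count test was not used and depth in reads is not given in the sources used here. Members and lists were chosen with earlier results of these data known.

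Genes with 1 c.p.m. (counts scaled by the library sum; 16.2 normalized counts) in at least 3 of 6 libraries were kept (11877). TAM and EtOH were compared on log2(value + 1) with limma 3.58.1 (R 4.3.3, trend, two-sided), adjusted by Benjamini-Hochberg over all genes, and called at an adjusted p under 0.05. The procedure was checked on simulated data. Same-numbered samples deviated together (Pearson r across genes of 0.24, 0.29 and 0.42, against -0.31 to 0.04 for other pairs), so the fit with the replicate number as a block is printed where it differs. This pairing comes from the data, not from the labels. No exact test is given, since 3 against 3 cannot reach a p below 0.1.

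Exon lengths and overlaps came from GENCODE M1 (mm9), and promoters from RefSeq. Genes described are Dscam and Dscaml1, in each role the 2 highest per kb and the 2 largest changes in each direction, every member called or not overlapping, and the 3 highest under the filter; others are given as ranges. Alternatives were other scalings, pseudocounts, filters, the block and leaving out each library.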

Additional observations from a re-analysis of the deposited data

How the results depend on the processing

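With the replicate number as a block, genes called went from 29 to 192, members other than Dscam from 0 to 4 (1 to 5 with Dscam, chosen for its fall) and wider pathway genes from 1 to 2, Nrp2 (1.73), Plxna3 (-1.56), Plxna4 (2.15) and Sema6a (1.95) passed the threshold with their log2 fold changes as before, and no other member's call changed. Scaling to library size only moved the median of all genes from -0.03 to 0.08, the members' median to 0.15 and Ephb4 to 0.020. With no filter on low values 17 genes were called and the members' median was 0.36. Leaving out 1 library gave 0 to 15 calls over all genes and a members' median of 0.076 to 0.29. Members called numbered 0 or 1, and the 1 was always Dscam, which was chosen for its fall. Dscam fails the filter when an EtOH library is left out, and without TAM replicate 1 it was tested (-8.24) but 0 genes were called. Without both libraries numbered 2, an alternative chosen after seeing the data, 9 genes and 0 members were called, the members' median was 0.22, Efna1 was 0.52 and Ephb3 -0.10. Signs also turned on leaving out 1 library for Efna1 (range -1.50 to 0.067), Ephb3 (-0.43 to 0.37), Slit2 (-0.24 to 0.72) and Unc5b (-0.19 to 1.22), none of them called. The cause was not tested. Of the remaining values, 472 kept their direction and counted as unchanged. For Dscam, and for ratios of group means with a floor of 1 c.p.m., this required a move under the SD of the pair differences. For the others it required the same side of the threshold. A further 4 moved: Dscam with a pseudocount of 10 (-6.15), and Dscam (-5.94), Efna3 (1.45) and Ephb3 (-0.020) with that floor. Depth in reads is unknown, and 21 members were too low to test.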

Other observations

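Libraries also differed by replicate number. Both libraries numbered 2 lay above the other 4 libraries for 6 tested members (12.2%, against 12.6% of all genes tested), namely Epha1, Epha2, Sema6b, Sema6d, Sema7a and Unc5b. They lay below the other 4 for 9 members (18.4%, against 11.9% of all genes), namely Efna4, Ephb3, Ntn3, Plxnb1, Sema3c, Sema3d, Sema3f, Sema4c and Slit2. Sema6d, a transmembrane semaphorin, had 117, 1123 and 167 normalized counts in EtOH libraries and 199.2, 283 and 227 in TAM libraries. Sema3d, a secreted semaphorin, had 469, 74.3 and 693 in EtOH and 223, 82.9 and 320 in TAM libraries. Of these listed members, Efna4, Epha1 and Sema3c were lower in TAM within each pair, and Sema7a and Unc5b were higher. None of them was called in either fit. For the libraries numbered 1 and 3 the same counts were between 0 and 4 members in each direction.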
